A study of Homo sapiens with 18 samples.

Results

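The 10 genes described here encode proteins of cell-cell junctions: the cadherins CDH1, CDH2 and CDH3, the claudins CLDN1, CLDN3, CLDN4 and CLDN7, the tight junction proteins OCLN and TJP1, and the adhesion glycoprotein EPCAM. They were chosen by symbol, with earlier results of these data known. All 10 were present in each of the 3 deposited gene tables, which list 15543, 31585 and 32555 genes. The study sequenced poly(A)-selected RNA from 18 libraries of human cell cultures, 3 in each of 6 groups. SW480-LM3 is a highly metastatic line that the study obtained from the SW480 colon cancer line by injection into the spleen in 3 rounds of selection, and SW480-P is its parent. EV-XP-NID1-LX-2 denotes LX-2 cells, a human hepatic stellate line, incubated for 48 hours with exosomes carrying NID1, and EV-XP-LX-2 denotes the LX-2 controls. LV5-NID1 denotes SW480 cells that overexpress NID1 (nidogen 1, a basement membrane glycoprotein) and were given GW4869, an inhibitor of exosome release, for 72 hours, and LV5 is their control. The labels do not explain the letters XP, do not say whether LV5 cells also received GW4869 or the LX-2 controls other exosomes, and do not say whether SW480-LM3 is a single clone. In LV5-NID1 against LV5 the NID1 transgene and GW4869 therefore cannot be told apart.

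Adherens junctions join neighbouring cells through cadherins, which bind the same cadherin on the next cell and are held to actin by catenins. Tight junctions lie closer to the free surface of an epithelium, where claudins and occludin form strands that seal the space between cells and TJP1 (ZO-1) scaffolds them from inside. Colonic epithelium typically carries E-cadherin, the product of CDH1, while stellate cells and fibroblasts carry N-cadherin, the product of CDH2, and a shift from E-cadherin to N-cadherin is the textbook sign of epithelial-mesenchymal transition.

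The libraries were compared with their labels first. NID1 was at 44.7, 49.1 and 46.9 scaled reads in SW480-LM3 and at 0.570, 0.582 and 0.352 in SW480-P. In the overexpression experiment NID1 was at 348, 352 and 379 TPM (length-corrected transcript shares that sum to the same total in every library) in LV5-NID1 and at 0, 0.04 and 0.02 TPM in LV5. LX-2 cells had 21.7, 18.02 and 22.6 TPM of NID1 with NID1 exosomes and 25.1, 25.1 and 26.0 TPM in the controls, a measure of the cells' own transcript that does not check the exosome cargo. The colorectal epithelial markers KRT8 and KRT18 were high in all 4 SW480 groups, but KRT19 averaged 0.103 TPM in LV5-NID1 and 2.92 TPM in LV5, and KRT20, VIL1 and CDX2 averaged under 1 TPM in both of those groups. VIM, COL1A1, COL1A2, PDGFRB and ACTA2 were present in LX-2, while DES has no row in that table. LV5 also held VIM, COL1A1, PDGFRB and ACTA2, at means of 590, 10.7, 4.30 and 6.37 TPM. COL1A2 averaged 0.007 TPM in LV5 and 13.01 TPM in EV-XP-LX-2. KRT8 and KRT18 averaged 54.8 and 199 TPM in EV-XP-LX-2. The presence of VIM, COL1A1, PDGFRB, ACTA2, KRT8 or KRT18 alone thus does not tell LX-2 from SW480. Hepatocyte markers summed to at most 0.480 TPM and leukocyte markers to at most 1.85 TPM in any LX-2 or LV5 library, and no marker of either list has a row in the SW480-LM3 table. TIE1, from the endothelial list, averaged 17.1 TPM in EV-XP-NID1-LX-2 and 31.4 TPM in EV-XP-LX-2, with VWF and KDR under 1 TPM, and its part in the LX-2 results was not tested.

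A pair of features of the libraries bear on what follows. Gene levels in SW480-LM3 ranked no more like those of LV5, also SW480, than like those of LX-2: across 14744 genes Spearman's rho was 0.694 with LV5 and 0.713 with EV-XP-LX-2, while for SW480-P it was 0.886 with LV5 and 0.794 with EV-XP-LX-2. A change during selection and another line of origin cannot be told apart in the SW480-LM3 libraries. LV5-NID1 replicate 3 correlated with its own replicates at r of 0.979 and 0.983 across genes, against 0.991 between replicates 1 and 2, and its deviations followed the GC content of transcripts (rho of -0.58 over 10426 genes). Each deviation is taken from the mean of the other 2 libraries of the group. Those of replicates 1 and 2 therefore tend to run the other way, and had rho of 0.60 and 0.36. This measure alone does not single out replicate 3. Elsewhere rho reached -0.46 and 0.41 in EV-XP-NID1-LX-2 replicates 2 and 1, and -0.41 and 0.36 in SW480-P replicates 3 and 1. Values with and without LV5-NID1 replicate 3 are given wherever it moves a result. Nothing in the labels tells separate cultures from repeat preparations, so p-values cover the spread between libraries alone, and that spread may be technical.

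In SW480-LM3 against SW480-P, the comparison that asks how the selected line differs from its parent, E-cadherin and the sealing claudins were higher in SW480-LM3 and N-cadherin, P-cadherin and CLDN7 were lower. Of the 10 genes, 7 rose and 3 fell at a Benjamini-Hochberg adjusted p under 0.05 in limma, and no gene's groups overlapped. The whole transcriptome also differed: 87.8% of 14527 genes tested were called, with 43.9% higher and 43.9% lower, and groups did not overlap for 87.6%, so a call alone does not set the junction genes apart. The colorectal epithelial markers summed to 12623 to 13315 scaled reads in SW480-LM3 and 3426 to 3693 in SW480-P, with KRT8 the largest in both. KRT8, KRT18, KRT19 and VIL1 averaged higher in SW480-LM3. CDX2 was alike, at 17.7 ± 1.98 in SW480-LM3 and 16.4 ± 2.66 in SW480-P, and KRT20 has no row there. VIM, from the hepatic stellate list, averaged 662 ± 26.4 scaled reads in SW480-LM3 and 556 ± 12.7 in SW480-P. From the same list COL1A1 and DES averaged higher in SW480-LM3 and PDGFRB and ACTA2 lower, all at means of 2.95 or less. COL1A2 has no row there. The part of these markers in the junction results was not tested. A called change of at least 1 on the log2 scale was found for 9 of the 10, against 45.4% of all genes. The median log2 fold change was 1.88 over the 10 and -0.004 over all genes. Because the 10 were chosen with earlier results of these data known, neither contrast is independent evidence that junction genes stand apart. CDH2 and CDH3 passed the filter on low values through SW480-P alone, so their calls follow partly from the filter. Values in this comparison are read counts divided by a scaling factor for each library.

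**Figure D1:**
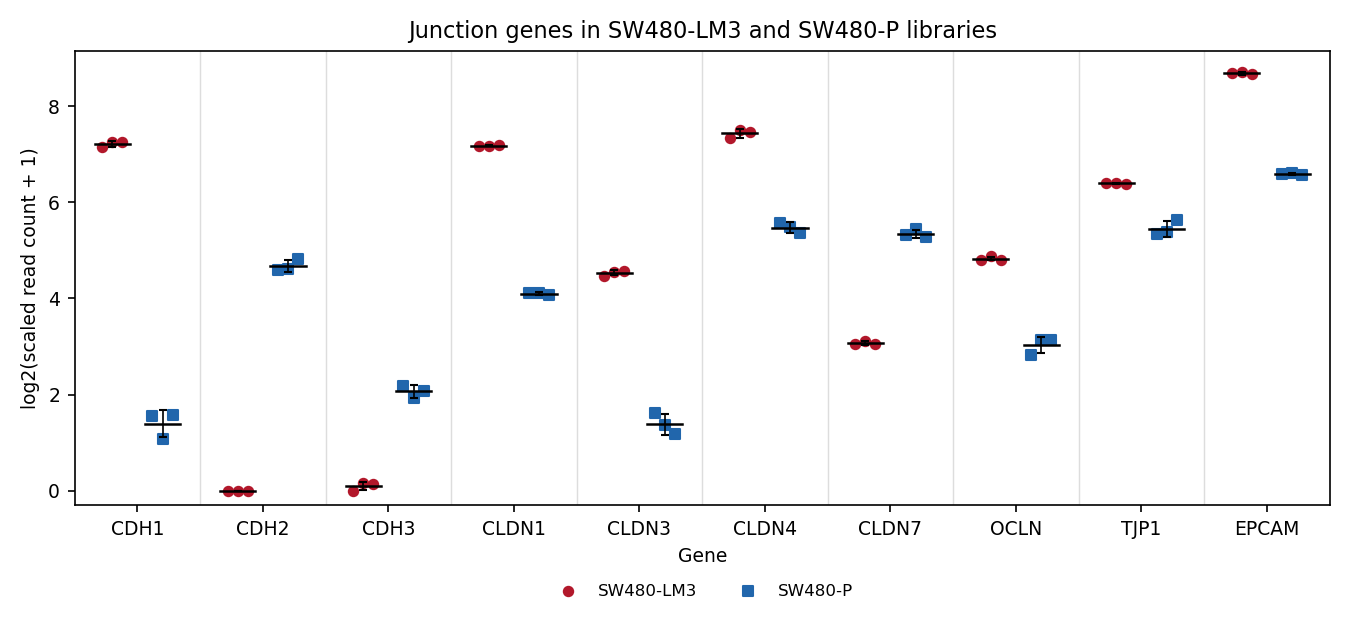
Levels of the 10 junction genes in the SW480-LM3 (red circles) and SW480-P (blue squares) libraries, as log2 of the scaled read count plus 1; each point is a library, bars are the mean and error bars the SD of 3 libraries. The groups are apart for every gene, with CDH2 at 0 in all 3 SW480-LM3 libraries and CDH1 at 141 scaled reads or more in each.

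Among the cadherins, CDH1 stood at 141, 151 and 153 scaled reads in SW480-LM3 and at 1.92, 1.11 and 1.97 in SW480-P. Every SW480-LM3 library was far above every SW480-P library, and the means of 148 ± 6.50 and 1.67 ± 0.486 (SD, n = 3 each) differ by 89.0-fold. The log2 fold change on log2(value + 1) was 5.82 (SE 0.12, limma adjusted p = 3.18e-15). In reads recovered from the scaled values, that is 7828 against 74 over the 3 libraries of each group.

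CDH2 ran the other way, with 0 scaled reads in all 3 SW480-LM3 libraries and 23.2, 23.4 and 27.4 in SW480-P. No N-cadherin read was seen in the selected line, where SW480-P had 1116 reads over 3 libraries. Set against a floor of 3 reads over the group, CDH2 was at least 432-fold lower in SW480-LM3, and its fitted log2 change of -4.68 (SE 0.13, limma adjusted p = 7.06e-14) depends on the pseudocount. CDH3, which encodes P-cadherin, a cadherin of basal epithelial cells, was at 0, 0.117 and 0.108 scaled reads in SW480-LM3 and at 3.56, 2.80 and 3.24 in SW480-P. These are low levels in both lines, 4 reads in SW480-LM3 against 144 in SW480-P, and CDH3 fell by 1.96 on the log2 scale (SE 0.14, limma adjusted p = 5.89e-09). The ratio of means was 42.7 in favour of SW480-P, with a 95% counting interval of 16.0 to 156 that covers counting error only.

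CDH1 and CDH3 are neighbours on chromosome 16 and moved in opposite directions between these lines. The difference log2(CDH1 + 1) minus log2(CDH2 + 1) sums up the cadherin balance of each library. It was 7.15, 7.25 and 7.26 in SW480-LM3 and -3.05, -3.53 and -3.26 in SW480-P. The balance thus lay on the E-cadherin side in every SW480-LM3 library and on the N-cadherin side in every SW480-P library. These are RNA levels in bulk cultures, where fewer cells of a type and less RNA per cell cannot be told apart.

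The claudins divided 3 to 1. CLDN1, a sealing claudin of most epithelia, was at 144, 143 and 144 scaled reads in SW480-LM3 and 16.3, 16.4 and 15.9 in SW480-P. It rose 8.89-fold by the means, with replicates of either line within a few percent of each other, and its log2 fold change was 3.08 (SE 0.05, limma adjusted p = 5.3e-16). CLDN3 was at 21.2, 22.6 and 22.7 scaled reads in SW480-LM3 and 2.06, 1.57 and 1.27 in SW480-P. It was near the filter in the parental line and clearly present in the selected one, a 13.6-fold difference in means (log2 3.15, SE 0.13, limma adjusted p = 7.83e-12). CLDN4, which acts as a receptor for Clostridium perfringens enterotoxin as CLDN3 does, was at 160.2, 180.0 and 176 scaled reads in SW480-LM3 and 46.8, 43.7 and 40.2 in SW480-P. It was abundant in both lines and higher in each SW480-LM3 library, by 3.95-fold (log2 1.96, SE 0.06, limma adjusted p = 2.64e-13).

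CLDN7, an epithelial claudin that binds EPCAM, was the exception, at 7.27, 7.66 and 7.27 scaled reads in SW480-LM3 and 38.9, 42.5 and 38.1 in SW480-P. All 3 SW480-LM3 libraries were below all 3 SW480-P libraries, and the mean was 5.38-fold higher in SW480-P. CLDN7 fell by 2.28 on the log2 scale (SE 0.09, limma adjusted p = 2.31e-12). In the GENCODE annotation 13.0% of its exon bases are shared with AC003688.1 on the same strand, so reads of the pair could be split in counting. Genes on the opposite strand share 13.8% of the exon bases of CDH3, 4.26% of CDH1, 3.06% of CDH2 and 1.84% of CLDN7. The strand setting of counting is not given, so such overlaps could matter too.

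The promoters of CLDN3, CLDN4 and CLDN7 are shown because the first pair, neighbours on chromosome 7, rose together while CLDN7 fell. Each window runs from 250 bases before to 50 after an annotated start and is taken from RefSeq (GRCh38.p14), 5′ to 3′ on the gene's strand: CLDN3 at chr7:73770221-73770520 on the minus strand, CLDN4 at chr7:73830746-73831045 on the plus strand, and CLDN7 at chr17:7262429-7262728 on the minus strand. Capitals mark CACCTG or its reverse complement CAGGTG, the E-box core that SNAI and ZEB proteins are known to bind.
CLDN3: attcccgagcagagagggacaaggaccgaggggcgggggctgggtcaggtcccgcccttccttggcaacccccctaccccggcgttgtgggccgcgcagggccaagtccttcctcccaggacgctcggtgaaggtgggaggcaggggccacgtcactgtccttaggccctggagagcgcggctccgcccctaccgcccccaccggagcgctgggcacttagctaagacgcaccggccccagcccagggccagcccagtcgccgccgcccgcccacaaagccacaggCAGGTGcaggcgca
CLDN4: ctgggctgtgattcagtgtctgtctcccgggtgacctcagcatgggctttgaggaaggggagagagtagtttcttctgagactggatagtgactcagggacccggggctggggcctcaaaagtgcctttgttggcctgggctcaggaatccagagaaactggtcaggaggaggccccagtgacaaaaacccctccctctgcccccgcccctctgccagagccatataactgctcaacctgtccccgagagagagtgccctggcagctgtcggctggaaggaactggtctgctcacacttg
CLDN7: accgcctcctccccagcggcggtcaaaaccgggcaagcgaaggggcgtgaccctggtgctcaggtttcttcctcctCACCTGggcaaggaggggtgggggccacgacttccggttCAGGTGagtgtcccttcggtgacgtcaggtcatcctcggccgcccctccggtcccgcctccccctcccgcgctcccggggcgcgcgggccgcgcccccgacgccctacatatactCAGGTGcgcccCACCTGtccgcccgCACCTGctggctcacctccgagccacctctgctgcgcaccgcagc
The CLDN7 window holds 5 copies of the motif, 3 as CACCTG and 2 as CAGGTG, the CLDN3 window holds 1 and the CLDN4 window 0. A second annotated CLDN7 start has 0 copies in its window. Among all 35116 windows of 300 bases, 20.6% hold at least 1 copy and 0.635% hold 3 or more. These are matches of letters, with no measure of binding in these data. Of the 10 genes 7 have windows in the table, 13 in all: the windows of CDH2 and CLDN1 hold 0 copies, those of OCLN 1 and 2, and 1 of the 4 of TJP1 holds 1. CDH1, CDH3 and EPCAM were not shown.

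The strand protein and its scaffold were both higher in SW480-LM3. OCLN was at 27.0, 28.3 and 27.0 scaled reads in SW480-LM3 and 6.12, 7.75 and 7.75 in SW480-P. The groups were well apart, 3.81-fold by the means (log2 1.80, SE 0.10, limma adjusted p = 3.39e-10). TJP1 was at 83.3, 84.2 and 82.5 scaled reads in SW480-LM3 and 39.3, 40.6 and 48.4 in SW480-P. It had the smallest change of the 10 genes, 1.95-fold by the means (log2 0.95, SE 0.07, limma adjusted p = 4.91e-09), with SW480-P replicate 3 the nearest library to SW480-LM3.

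EPCAM was at 411, 420.1 and 404 scaled reads in SW480-LM3 and 94.9, 97.4 and 94.5 in SW480-P. It was high in both lines and 4.31-fold higher in SW480-LM3 (log2 2.09, SE 0.03, limma adjusted p = 5.02e-16). EPCAM and its partner CLDN7 thus moved in opposite directions.

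Levels of different genes were compared as scaled reads per kilobase of the longest annotated transcript. In SW480-LM3 the order was EPCAM at 239, CLDN4 at 41.4, CLDN1 at 41.3, CDH1 at 30.3, CLDN3 at 17.4, TJP1 at 10.5, OCLN at 4.26, CLDN7 at 3.85, CDH3 at 0.015 and CDH2 at 0 per kilobase. In SW480-P EPCAM led at 55.5 per kilobase, followed by CLDN7 at 20.7 and CLDN4 at 10.5, and CDH1 came last at 0.341. EPCAM was first in both lines, while CLDN7 stood second in the parent and eighth in SW480-LM3.

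**Figure D2:**
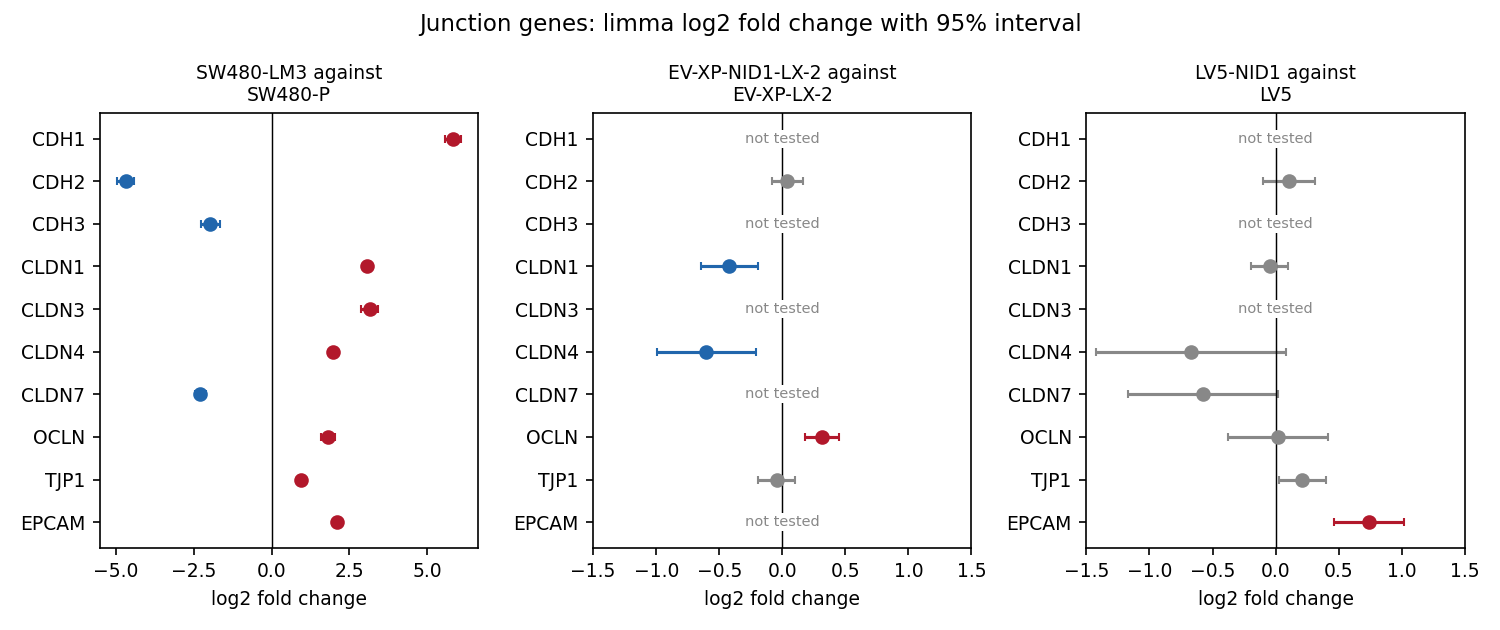
limma log2 fold changes (value plus 1) of the 10 junction genes in the 3 comparisons, with 95% confidence intervals; red is called higher, blue called lower, grey not called, and "not tested" marks genes below the filter. The first panel has a wider axis, reaching 5.82 for CDH1, while no change in the other panels passes 0.75 in size.

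The other junction genes, counted over lists chosen with earlier results of these data known, were counted in the same fit, where 43.9% of all genes were higher and 43.9% lower. Of 9 adherens junction partners tested, 8 rose and 1 fell (median log2 fold change 1.60), and of 16 tight junction membrane and plaque partners 12 rose and 3 fell (median 1.52). CTNND1 (p120 catenin, which keeps cadherins at the membrane) averaged 395 ± 4.50 scaled reads in SW480-LM3 and 114 ± 2.97 in SW480-P (log2 1.78, limma adjusted p = 2.39e-15). NECTIN1 averaged 118 ± 2.25 scaled reads in SW480-LM3 and 11.9 ± 1.47 in SW480-P (log2 3.21, limma adjusted p = 1.48e-14). The nectins are immunoglobulin-type adhesion molecules of the same junction, and they did not all move alike: NECTIN3 was at 0 in all SW480-LM3 libraries and averaged 24.5 ± 2.22 in SW480-P (limma adjusted p = 6.92e-14). NECTIN3 passed the filter on low values through SW480-P alone, so that call follows partly from the filter.

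Among the tight junction partners, CGNL1 (paracingulin) averaged 65.5 ± 2.36 scaled reads in SW480-LM3 and 0.164 ± 0.176 in SW480-P (limma adjusted p = 6.4e-15); it passed the filter through SW480-LM3 alone. LSR, a protein of the corners where 3 cells meet, averaged 113 ± 6.32 scaled reads in SW480-LM3 and 14.1 ± 0.473 in SW480-P (log2 2.91, limma adjusted p = 5.43e-15). PALS1, a polarity scaffold, averaged 45.6 ± 1.87 scaled reads in SW480-LM3 and 259 ± 15.0 in SW480-P (log2 -2.48, limma adjusted p = 3.03e-15).

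Other cadherins split evenly, 2 higher and 2 lower of 4 (median 0.23). CDH17, the liver-intestine cadherin, averaged 19.1 ± 2.20 scaled reads in SW480-LM3 and was at 0 in every SW480-P library (limma adjusted p = 2.61e-13); it passed the filter through SW480-LM3 alone. CDH13 and CDH24 fell by 0.30 and 0.80 on the log2 scale (limma adjusted p = 0.000227 and 3.66e-05). Of 4 other claudins, 2 rose, 1 fell and 1 was not called. CLDN11, best known from myelin and the testis, averaged 148 ± 3.69 scaled reads in SW480-LM3 and 6.81 ± 0.873 in SW480-P (log2 4.26, limma adjusted p = 1.24e-15), CLDN15 rose by 1.37 (limma adjusted p = 4.92e-08) and CLDN12 fell by 0.16 (limma adjusted p = 0.0108) on the log2 scale. Of 5 desmosome genes 3 rose and 1 fell, led by desmoplakin DSP, with means of 783 ± 31.1 scaled reads in SW480-LM3 and 103 ± 2.75 in SW480-P (log2 2.92, limma adjusted p = 4.88e-17). PKP2 and PKP3, its plaque partners, rose by 1.63 and 1.52 on the log2 scale (limma adjusted p = 5.98e-13 and 1.13e-12).

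In LX-2 cells, where the question was what NID1 exosomes do to stellate cells, N-cadherin was abundant and was not called different, OCLN rose, and CLDN1 and CLDN4 fell. Of the 10 genes 5 could not be tested: CDH1, CDH3, CLDN3, CLDN7 and EPCAM stayed under 1 TPM in all 6 libraries. Of the 5 genes that passed the filter 3 were called, 1 higher and 2 lower, against 42.3% of 15802 genes called in all, 17.8% higher and 24.6% lower, and 3 of the 5 had groups that did not overlap, against 55.9%. No called change among them reached 1 on the log2 scale, against 1.77% of all genes. CLDN4 passed the filter through EV-XP-LX-2 alone. The mitochondrial share of TPM was 3.54% to 3.80% in EV-XP-NID1-LX-2 and 5.98% to 6.20% in EV-XP-LX-2. The hepatic stellate markers summed to 1360 to 1625 TPM in EV-XP-NID1-LX-2 and 2033 to 2199 TPM in EV-XP-LX-2. The part of either in these results was not tested.

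CDH2 was at 103, 93.2 and 103 TPM in EV-XP-NID1-LX-2 and 97.5, 97.7 and 94.6 TPM in EV-XP-LX-2. The groups overlapped, and the log2 difference was 0.04 with a 95% interval of -0.08 to 0.17 (limma adjusted p = 0.565). CDH1 was at 0, 0 and 0.1 TPM in EV-XP-NID1-LX-2 and 0.07, 0.1 and 0.07 TPM in EV-XP-LX-2, so E-cadherin RNA was near 0 throughout. CDH3 spread from 0.07 to 0.780 TPM in EV-XP-NID1-LX-2 and from 0.180 to 0.420 TPM in EV-XP-LX-2, with overlap.

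CLDN1 was at 7.34, 7.13 and 7.84 TPM in EV-XP-NID1-LX-2 and 9.79, 11.7 and 9.51 TPM in EV-XP-LX-2. Every library given NID1 exosomes was below every control, and the log2 fold change was -0.42 (SE 0.10, limma adjusted p = 0.0117), a mean 0.720 times that of the controls. CLDN4 was at 0.620, 0.690 and 0.8 TPM in EV-XP-NID1-LX-2 and 1.77, 1.09 and 1.98 TPM in EV-XP-LX-2. The groups were apart at these low levels (log2 -0.60, SE 0.17, limma adjusted p = 0.024), but leaving out any of 4 libraries ended the call: limma's adjusted p became 0.0654 without replicate 1 and 0.0556 without replicate 2 of EV-XP-NID1-LX-2, and 0.0817 without replicate 1 and 0.0783 without replicate 3 of EV-XP-LX-2. CLDN3 and CLDN7 did not pass 0.090 TPM in EV-XP-NID1-LX-2 or 0.220 TPM in EV-XP-LX-2.

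OCLN was at 46.3, 44.4 and 41.4 TPM in EV-XP-NID1-LX-2 and 36.0, 34.7 and 34.9 TPM in EV-XP-LX-2. All 3 libraries given NID1 exosomes were above the controls, 1.25-fold by the means of 44.1 ± 2.46 and 35.2 ± 0.694 TPM (SD, n = 3 each; log2 0.31, SE 0.06, limma adjusted p = 0.00475). TJP1 was at 61.8, 60.3 and 68.4 TPM in EV-XP-NID1-LX-2 and 68.0, 63.1 and 65.2 TPM in EV-XP-LX-2. These overlapped, with a log2 difference of -0.04 and a 95% interval of -0.19 to 0.10 (limma adjusted p = 0.603). EPCAM was at 0.120, 0.070 and 0.130 TPM in EV-XP-NID1-LX-2 and 0.260, 0 and 0 TPM in EV-XP-LX-2.

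The partner genes tested in LX-2 are read against the 17.8% of all genes called higher and 24.6% called lower. Of 9 adherens junction partners 2 rose and 0 fell: the alpha and beta catenins CTNNA1 (log2 0.17, limma adjusted p = 0.0286) and CTNNB1 (log2 0.21, limma adjusted p = 0.0293). CTNNA1 averaged 280.3 ± 14.7 TPM in EV-XP-NID1-LX-2 and 248 ± 6.26 TPM in EV-XP-LX-2. CDH13, a cadherin anchored to the membrane by a lipid, was the single call among 4 other cadherins and averaged 77.4 ± 4.54 TPM in EV-XP-NID1-LX-2 and 114 ± 2.94 TPM in EV-XP-LX-2 (log2 -0.55, limma adjusted p = 0.000574). CLDN11, the single call among 3 other claudins, averaged 276 ± 40.5 TPM in EV-XP-NID1-LX-2 and 379 ± 17.5 TPM in EV-XP-LX-2 (log2 -0.47, limma adjusted p = 0.0107), well above each of the 4 listed claudins in these cells. Of 13 tight junction partners 3 rose and 2 fell, among them PARD6B (log2 0.34, limma adjusted p = 0.0343) and F11R, which encodes JAM-A (log2 -0.26, limma adjusted p = 0.0148). Of 4 desmosome genes DSG2 fell, with means of 19.4 ± 1.64 TPM in EV-XP-NID1-LX-2 and 28.6 ± 0.993 TPM in EV-XP-LX-2 (log2 -0.54, limma adjusted p = 0.00158).

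**Figure D3:**
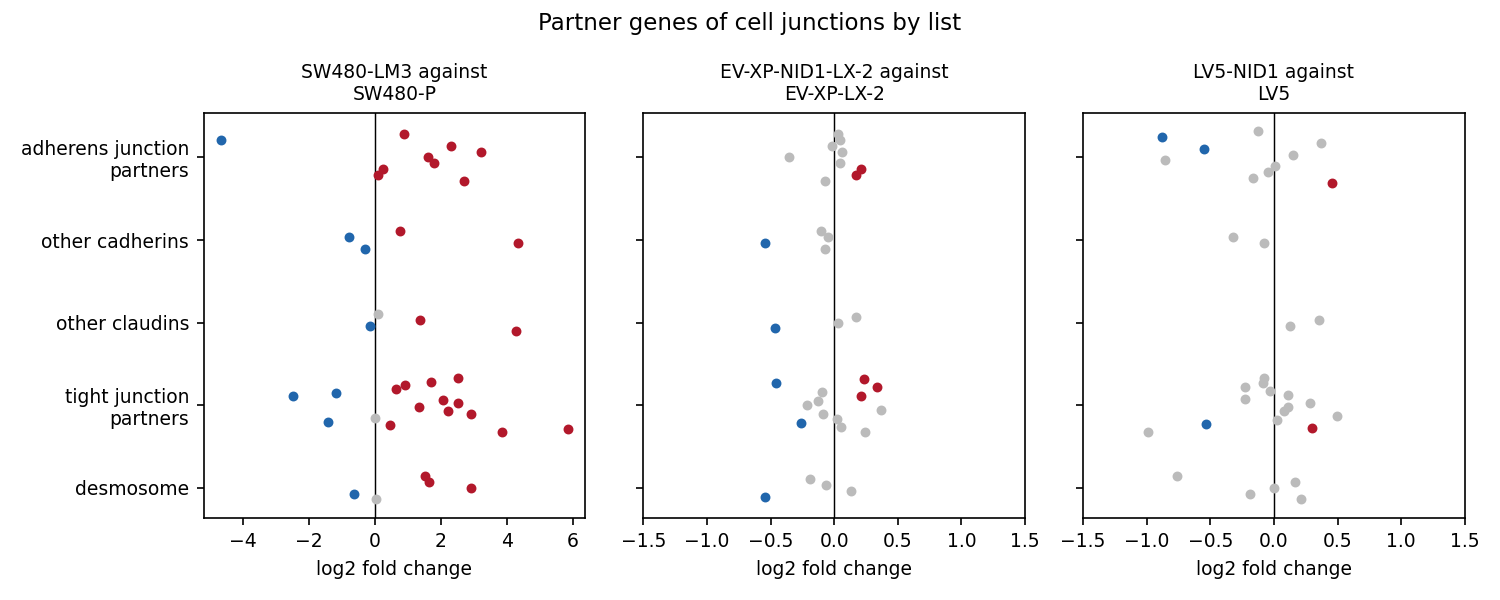
limma log2 fold changes (value plus 1) of the partner genes by list in the 3 comparisons; each point is a gene, red called higher, blue called lower and grey not called, and the vertical scatter is for legibility. SW480-LM3 has 8 of 9 adherens junction and 12 of 16 tight junction partners higher, and the other comparisons have mostly grey points.

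In LV5-NID1 against LV5, which addresses the exosome pathway and epithelial-mesenchymal transition in SW480 cells, EPCAM rose and no cadherin, OCLN or TJP1 call was made. CDH1, CDH3 and CLDN3 were under 1 TPM in all 6 libraries and were not tested. Of the 7 genes tested 1 rose and 0 fell in limma, against 16.6% of 15508 genes called in all, 7.27% higher and 9.32% lower, and 2 of the 7 had an unadjusted p under 0.05, against 5326 of the 15508. Groups did not overlap for 4 of the 7, against 43.3% of all genes, and no called change reached 1 on the log2 scale, against 1.42%. Replicate 3 of LV5-NID1 decided the size of the change and the call for CLDN4 and CLDN7, while their direction was the same without it.

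EPCAM was at 9.57, 8.39 and 9.20 TPM in LV5-NID1 and 4.24, 5.13 and 5.73 TPM in LV5. Every LV5-NID1 library was above every LV5 library, 1.80-fold by the means of 9.05 ± 0.604 and 5.03 ± 0.750 TPM (SD, n = 3 each; log2 0.74, SE 0.11, limma adjusted p = 0.0118). The adjusted p was 0.0528 without LV5 replicate 2 and 0.0522 with the replicate number as a block. In the same libraries the colorectal epithelial markers summed to 918 to 978 TPM in LV5-NID1 and 1627 to 1666 TPM in LV5, and their part in this result was not tested.

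CLDN4 was at 18.6, 16.8 and 7.52 TPM in LV5-NID1 and 21.7, 21.9 and 22.0 TPM in LV5. CLDN7, the most abundant of the 10 genes in these cells, was at 96.6, 88.0 and 49.3 TPM in LV5-NID1 and 114, 115 and 108 TPM in LV5. For both claudins all 3 LV5-NID1 libraries were below LV5, with replicate 3 far below the other two. With all libraries neither was called: the log2 fold change was -0.67 for CLDN4 (95% interval -1.42 to 0.08, limma adjusted p = 0.183) and -0.58 for CLDN7 (95% interval -1.17 to 0.02, limma adjusted p = 0.155). Without LV5-NID1 replicate 3 the changes were smaller and both were called lower, at -0.29 for CLDN4 (limma adjusted p = 0.0269) and -0.28 for CLDN7 (limma adjusted p = 0.0218). The longest transcripts of CLDN4 and CLDN7 have a GC content of 57.5% and 59.6%, against 39.9% to 47.0% for the other 5 genes tested. With trends on GC content and length removed, the log2 fold changes over all libraries were -0.58 (limma adjusted p = 0.178) and -0.38 (limma adjusted p = 0.132).

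**Figure D4:**
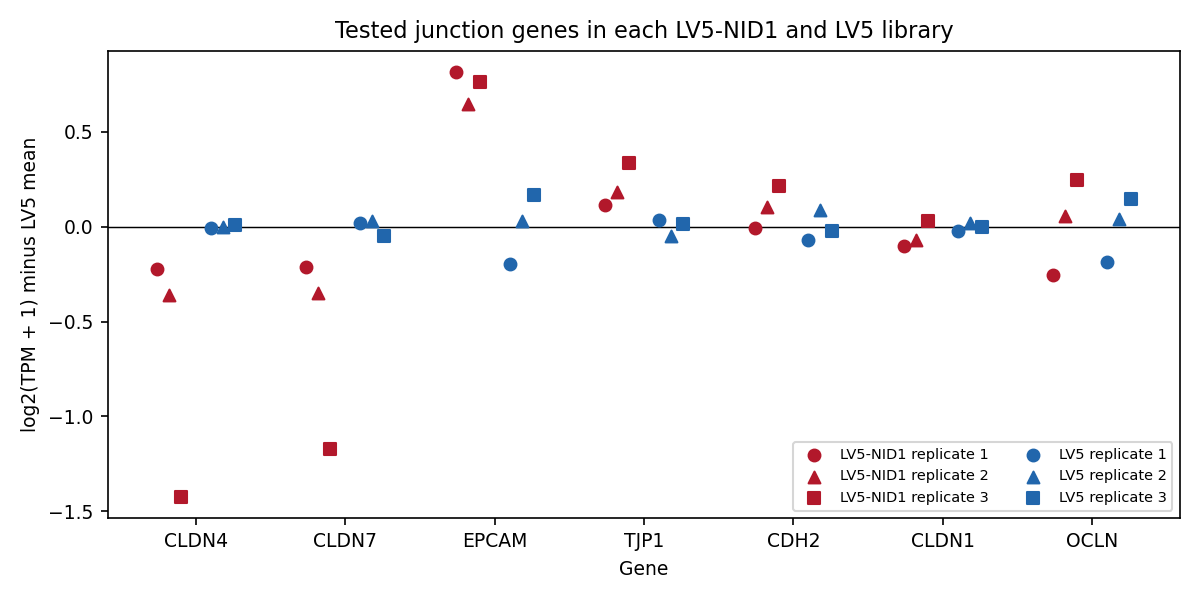
Each LV5-NID1 (red) and LV5 (blue) library as log2(TPM + 1) minus the LV5 mean, for the 7 junction genes tested; circles, triangles and squares are replicates 1, 2 and 3. LV5-NID1 replicate 3 lies far below the others for CLDN4 (7.52 TPM) and CLDN7 (49.3 TPM), while EPCAM is above 0 in all 3 LV5-NID1 libraries.

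CLDN1 was at 18.7, 19.1 and 20.6 TPM in LV5-NID1 and 19.8, 20.4 and 20.1 TPM in LV5. The groups overlapped, with a log2 difference of -0.05 and a 95% interval of -0.20 to 0.10 (limma adjusted p = 0.612). CLDN3 did not pass 0.080 TPM in LV5-NID1 or 0.070 TPM in LV5.

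CDH2 was at 11.9, 12.9 and 14.1 TPM in LV5-NID1 and 11.4, 12.8 and 11.8 TPM in LV5. N-cadherin thus overlapped between the groups (log2 0.10, 95% interval -0.10 to 0.31, limma adjusted p = 0.412). CDH1 was at 0.4, 0.290 and 0.520 TPM in LV5-NID1 and 0.580, 0.710 and 0.580 TPM in LV5. CDH3 was at 0.300, 0.430 and 0.220 TPM in LV5-NID1 and 0.460, 0.910 and 0.780 TPM in LV5. Both untested cadherins were below LV5 in each LV5-NID1 library, but with the filter left off neither was called (limma adjusted p = 0.248 for CDH1 and 0.168 for CDH3). The cadherin balance was on the N-cadherin side in all 6 libraries, at -3.21, -3.44 and -3.31 in LV5-NID1 and -2.97, -3.01 and -3.02 in LV5.

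OCLN was at 1.58, 2.20 and 2.64 TPM in LV5-NID1 and 1.70, 2.16 and 2.40 TPM in LV5. The ranges nearly coincided (log2 0.02, 95% interval -0.38 to 0.41, limma adjusted p = 0.952). TJP1 was at 18.2, 19.1 and 21.4 TPM in LV5-NID1 and 17.2, 16.2 and 16.9 TPM in LV5. The TJP1 groups were apart, 1.17-fold by the means (log2 0.21, SE 0.08), without passing the adjusted threshold (unadjusted p = 0.0316, limma adjusted p = 0.109).

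The partners in LV5-NID1 are read against the 7.27% of all genes called higher and 9.32% called lower with all libraries. Of 10 adherens junction genes 1 rose and 2 fell. NECTIN2 averaged 17.2 ± 0.955 TPM in LV5-NID1 and 25.7 ± 1.93 TPM in LV5 (log2 -0.55, limma adjusted p = 0.00935), and NECTIN4 averaged 0.487 ± 0.080 TPM in LV5-NID1 and 1.79 ± 0.637 TPM in LV5 (log2 -0.88, limma adjusted p = 0.0311). AFDN (afadin, which links nectins to actin) averaged 9.64 ± 0.882 TPM in LV5-NID1 and 6.76 ± 0.420 TPM in LV5 (log2 0.45, limma adjusted p = 0.0245). NECTIN4 passed the filter through LV5 alone. Of 14 tight junction partners, CXADR rose (log2 0.30, limma adjusted p = 0.0342), F11R fell (log2 -0.53, limma adjusted p = 0.019) and 12 were not called, and none of the 5 desmosome genes, 2 other cadherins or 2 other claudins was called. Without LV5-NID1 replicate 3 the adherens list had 1 higher and 4 lower, the tight junction list 2 higher and 3 lower and the desmosome list 0 higher and 1 lower, against 8.38% higher and 13.1% lower of all genes.

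**Figure D5:**
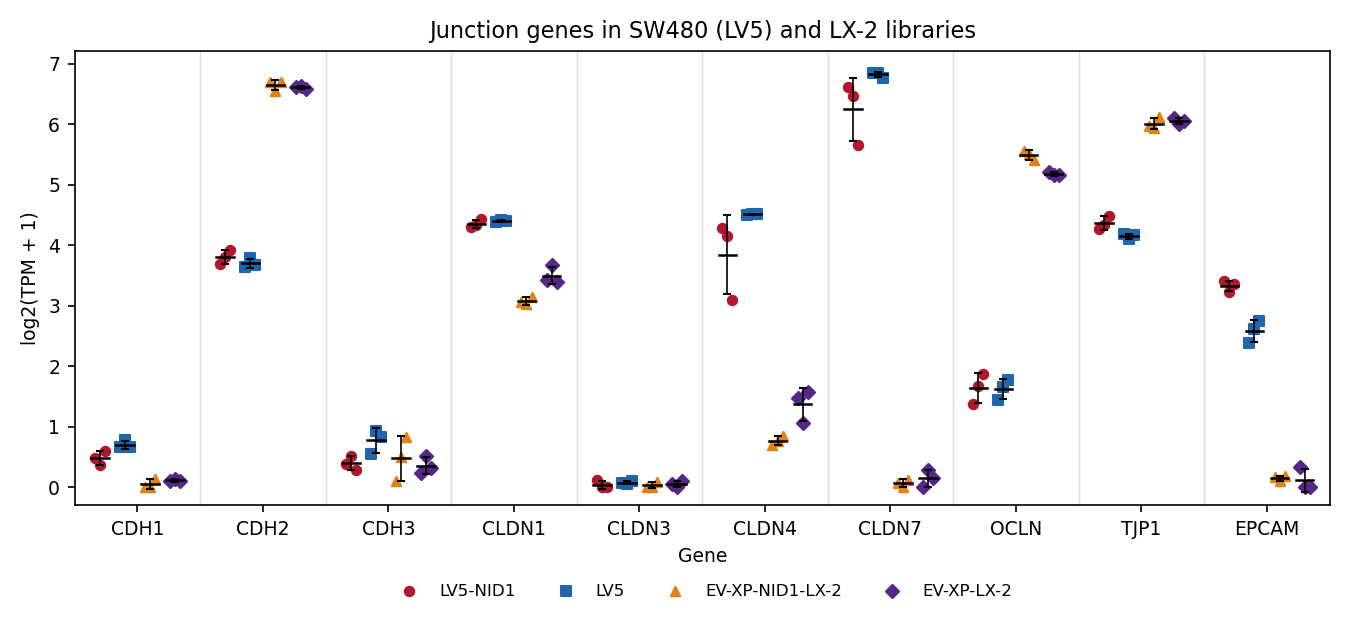
Levels of the 10 junction genes as log2(TPM + 1) in LV5-NID1, LV5, EV-XP-NID1-LX-2 and EV-XP-LX-2 libraries; each point is a library, bars are the mean and error bars the SD of 3 libraries. CDH2, OCLN and TJP1 stand higher in LX-2 and CLDN4, CLDN7, CLDN1 and EPCAM higher in the SW480 libraries, from tables normalised separately.

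Across the 4 groups measured in TPM, most junction genes stood clearly higher in 1 of the 2 lines. The tables were normalised separately, so the order of levels is a description with no test. CDH2 ran from a mean of 99.6 TPM in EV-XP-NID1-LX-2 and 96.6 in EV-XP-LX-2 down to 13.0 in LV5-NID1 and 12.003 in LV5, with overlap within each line and none between lines. OCLN ran from 44.1 TPM in EV-XP-NID1-LX-2 and 35.2 in EV-XP-LX-2 to 2.14 in LV5-NID1 and 2.09 in LV5, the last pair overlapping. The stellate line thus held 16.9 times the OCLN of SW480 between the control groups. TJP1 was at 63.5 TPM in EV-XP-NID1-LX-2 and 65.4 in EV-XP-LX-2, which overlap, and at 19.6 in LV5-NID1 and 16.8 in LV5, which do not.

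The SW480 side held CLDN7, with 78.0 TPM in LV5-NID1 and 112 in LV5, against 0.047 in EV-XP-NID1-LX-2 and 0.110 in EV-XP-LX-2, the last pair overlapping. CLDN4 was at 14.3 TPM in LV5-NID1, 21.9 in LV5, 0.703 in EV-XP-NID1-LX-2 and 1.61 in EV-XP-LX-2, with no overlap between any of the groups. CLDN1 differed less between the lines, at 19.4 TPM in LV5-NID1 and 20.1 in LV5, which overlap, and at 7.44 in EV-XP-NID1-LX-2 and 10.3 in EV-XP-LX-2, which do not. EPCAM led in LV5-NID1 and LV5 and was under 0.3 TPM in every LX-2 library. CDH1 was under 1 TPM in all 12 libraries, with both SW480 groups above both LX-2 groups, and the ranges of neighbouring groups overlapped for CDH3 and CLDN3.

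The genes whose log2(TPM + 1) across these 12 libraries was most like CDH2, among 10644 candidates outside the lists at 5 TPM or more in the mean of a group, were UBE2J1 (Pearson r of 0.9995), FAM21B (0.9994), MARCKS (0.9994), TMEM30A (0.9994) and BTN2A2 (0.9993). For CDH1 they were ANXA4 (0.9883), STK38 (0.9877), PCCB (0.982), PRKCH (0.9819) and ST3GAL4 (0.981). The 12 points share 2 lines and 2 tables, CDH1 is under 1 TPM in all of them, and the values are a description.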

How the data were processed

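Poly(A)-selected RNA from 18 cell culture libraries was compared within 3 deposited tables, each holding 3 libraries of 2 groups. HISAT2 2.1.0 and Bowtie2 2.3.5 appear without a role in the submitters' processing notes. Which tool counted reads, on which strand setting, build and annotation, is not given in the sources used here. The SW480-LM3 table holds a signal that the authors deposited as read counts divided by 1 factor per library, judged from the values: 100% were whole multiples of a step within 0.05 read. The recovered reads number 15531517 to 16586016 per SW480-LM3 library and 15504205 to 18965163 per SW480-P library. The other tables hold TPM as deposited by the authors, and the depth behind them is unknown.

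The members and gene lists were chosen with earlier results of these data known. The main test, two-sided, was limma 3.58.1 (R 4.3.3) with a variance trend on log2(value + 1), which understates changes of low genes, keeping genes that reached 1 in 3 libraries or more. Calls were made below a Benjamini-Hochberg adjusted p of 0.05, over every gene kept. Partner genes named are up to 3 called genes per list with the smallest adjusted p; some genes that this rule takes are not reported here. CDH1 and CDH3 rows were taken by Ensembl identifier. Alternatives were other pseudocounts, filters and scalings, no variance trend, a replicate block, each library left out, and edgeR 4.0.16 and DESeq2 1.42.0 on the recovered reads. Removal of GC and length trends, and the partner counts without LV5-NID1 replicate 3, were added after the data were seen. The model was tested on simulated data. Transcript lengths and GC content are of the longest GENCODE 29 transcript, and promoters are from RefSeq GRCh38.p14.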

Additional observations from a re-analysis of the deposited data

How the results depend on the processing

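In SW480-LM3 the 10 genes kept direction and call under each alternative run, libraries left out included, with 7 higher and 3 lower, except that a mean of at least 5 removes CDH3 from the test and leaves 2 lower. Scaling by library totals moved the median of all genes there to 0.26 (log2) and the share of calls that were higher to 58.9%, against 50.01%. Removal of GC and length trends moved the log2 change of CLDN4 there from 1.96 to 1.25 and that of EPCAM from 2.09 to 2.76. The same removal brought CLDN4 in LX-2 to a limma adjusted p of 0.0493. In LX-2 the count of genes lower fell to 1, against 2, with no low filter (CLDN4 limma adjusted p = 0.0568) and with a mean of at least 5, which removes CLDN4 from the test, and ranged from 1 to 2 with a library left out. The count higher was 2, against 1, with median-ratio scaling, which called CDH2 (limma adjusted p = 0.0355) and moved TJP1 to 0.014. In LV5-NID1 the count higher was 0 with the replicate block and 0 to 1 with a library left out (EPCAM adjusted p from 0.0147 to 0.0528), and the count lower was 0 to 2. Signs also turned for uncalled genes: CLDN1 was at 0.004 with quantile normalization, and OCLN at -0.10 with GC and length trends removed and between -0.097 and 0.152 with a library left out (below 0 without LV5-NID1 replicate 2 or 3 or LV5 replicate 1). Over all genes in LV5-NID1, 2572 were called, against 890 with the replicate block, 1532 with no filter and 713 to 3325 with a library left out, and 43.8% of calls were higher, against 54.7% with quantile normalization, 26.2% with the block, 34.0% with no filter and 25.9% to 39.1% with a library left out. Same-numbered libraries correlated at r of -0.11 to 0.10, so numbers were not taken to pair libraries, though every LX-2 library matched its own number best. With the block the SW480-LM3 counts were 7 and 3, the LX-2 counts 1 and 2 and the LV5-NID1 counts 0 and 0. The cause of these shifts was not tested. TPM tables hold no depth, so changes of genes near 1 TPM were limited by an unknown precision.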

Other observations

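The SW480-LM3 table has a second column of symbols, which names the CDH1 row FZR1 and the CDH3 row CDH15; the other 8 junction genes have the same symbol in both columns. The rows were read by their Ensembl identifiers, ENSG00000039068 and ENSG00000062038, and by the first symbol column. FZR1 stands in 1 row of the first column and in 2 rows of the second. A reader who used the second column would find this CDH1 row under the name FZR1.

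JUP, the plakoglobin of adherens junctions and desmosomes, averaged 168 ± 62.2 TPM in LV5-NID1 and 288 ± 17.2 TPM in LV5 (SD, n = 3 each), and was not called (log2 -0.85, limma adjusted p = 0.0957). It was named after its values were seen, and it was called lower without LV5-NID1 replicate 3.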
